A study of Mus musculus with 18 samples.

Results

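The 10 genes described here are markers of Kupffer cells, the macrophages that live in the sinusoids of the liver, and they were followed over the day in whole liver. The genes are Clec4f, Vsig4, Cd5l, Marco, Timd4, Csf1r, Cd68, C1qa, C1qb and C1qc. They were taken by symbol from the table of normalized read counts, and they are 10 of the 14451 genes that it lists. RNA was sequenced from 18 livers of wild-type male mice aged 8 to 9 weeks, kept under 12 h of light and 12 h of dark. There were 3 livers at each of 6 zeitgeber times (ZT, hours after lights on), namely ZT1, ZT5 and ZT9 in the light phase and ZT13, ZT17 and ZT21 in the dark phase. All livers carried the same genotype and none was treated, so time of day is the only factor of the design. At each time 5 mice were studied and only the 3 with the best RNA were sequenced. The strain is not given in the sources used here. Replicate numbers are names only and do not pair livers across times.

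Kupffer cells sit in the sinusoid wall, among endothelial cells, and clear particles, bacteria, dying cells and old red blood cells from portal blood. They depend on signals through the receptor Csf1r, and a core set of surface receptors and secreted proteins sets them apart from recruited monocytes. Circadian clocks run in most cells of the liver, and macrophages have clocks of their own. In whole liver, a gene made mainly by a minor cell type gives a level per total RNA. In such bulk samples, fewer cells of a type and less RNA per cell cannot be told apart.

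Values are normalized read counts on a linear scale, close to reads per 1000000 reads, and depth was 10268168 to 23242842 estimated reads per liver with a median of 12078875. All 10 genes were above the lowest value in all 18 livers. The thinnest was Marco, with 10 to 258 estimated reads per liver, and the deepest were Clec4f with 479 to 1553 and Cd5l with 284 to 1680. Together the 10 genes made up 0.0139% to 0.0402% of a liver's total, whereas albumin (Alb), the main product of hepatocytes, made up 5.14% to 7.53%. No 2 livers held identical values. By 17 clock genes, 17 of 18 livers were nearest to the other livers of their own time point. The exception was ZT5 replicate 3, the most deeply sequenced liver, which was nearest to ZT9.

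A pair of livers stood apart before any test. The 10 values added up to 149.2 in ZT21 replicate 1 and 150.4 in ZT17 replicate 2, against a median of 282.3 and a maximum of 378.1 in ZT5 replicate 1. Next lowest was ZT1 replicate 3, a light phase liver, at 179.1. ZT17 replicate 2 was the lowest of its time point for 10 of 10 genes, and ZT21 replicate 1 for 9 of 10. Each was among the 2 lowest of all 18 livers for 9 of 10. These livers were singled out after their values were seen, and the counts of calls for the 10 genes are also given for the 16 other livers.

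Per kilobase of exon, the genes ranged over about an order of magnitude. Clec4f, a C-type lectin that in mice is confined to Kupffer cells, had a mean level of 29.0 ± 6.54 per kilobase (SD, n = 18). Cd5l, a secreted protein of the scavenger receptor family that macrophages release into blood, followed with 28.2 ± 9.63. Next came the 3 chains of C1q, the recognition part of the classical complement pathway, with 25.3 ± 4.92 for C1qa, 23.7 ± 5.72 for C1qb and 20.3 ± 4.91 for C1qc. Neighbours in this upper group were not cleanly ordered, since Clec4f exceeded Cd5l in 11 of 18 livers, Cd5l exceeded C1qa in 10, C1qa exceeded C1qb in 14 and C1qb exceeded C1qc in 16. Below them, Vsig4, a receptor for complement C3 fragments, stood at 11.8 ± 3.03, Csf1r at 7.53 ± 2.10, the lysosomal glycoprotein gene Cd68 at 4.89 ± 1.48, Timd4, a receptor for phosphatidylserine on dying cells, at 2.42 ± 0.696 and the scavenger receptor gene Marco at 2.17 ± 1.38. Each step from C1qc down to Timd4 held in 18 of 18 livers, while Timd4 exceeded Marco in 13.

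The lowest time point mean was at ZT21 for 10 of 10 genes, as for 13.7% of all 14449 genes tested, and gaps between livers of one time point were wide. Without the 2 low livers it was at ZT21 for 8 of 10 genes (14.3% of all genes), and the ZT1 means of C1qa (24.04 against 25.2 at ZT21) and C1qb (22.8 against 23.1) were then the lowest. From all 18 livers the highest mean was at ZT5 for 6 genes, at ZT9 for 3 (Clec4f, Cd5l and C1qb) and at ZT13 for C1qc. Without the 2 low livers it moved to ZT17 for Vsig4 (21.2 against 19.3 at ZT5) and Cd68 (8.11 against 6.78). With all 18 livers, the genes differed at ZT17, where Cd5l had a mean of 44.9 after 78.0 at ZT9, while Vsig4 had 17.5 after 18.2 and Cd68 6.55 after 6.64. The time courses of different genes were not compared by a test. The summed level of the 10 genes was 249.1 ± 76.5 at ZT1, 321.6 ± 50.1 at ZT5, 328.1 ± 30.1 at ZT9, 303.0 ± 46.0 at ZT13, 244.5 ± 92.1 at ZT17 and 202.1 ± 46.0 at ZT21 (SD, n = 3). The 3 livers of the highest time point did not overlap those of the lowest in 9 of 10 genes, all but Cd68, and the same was true of 70.8% of all genes. In the 16 other livers there was no overlap in 10 of 10 genes and in 79.3% of all. The summed level without them was 291.6 at ZT17 and 228.5 at ZT21 (n = 2 each).

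**Figure D1:**
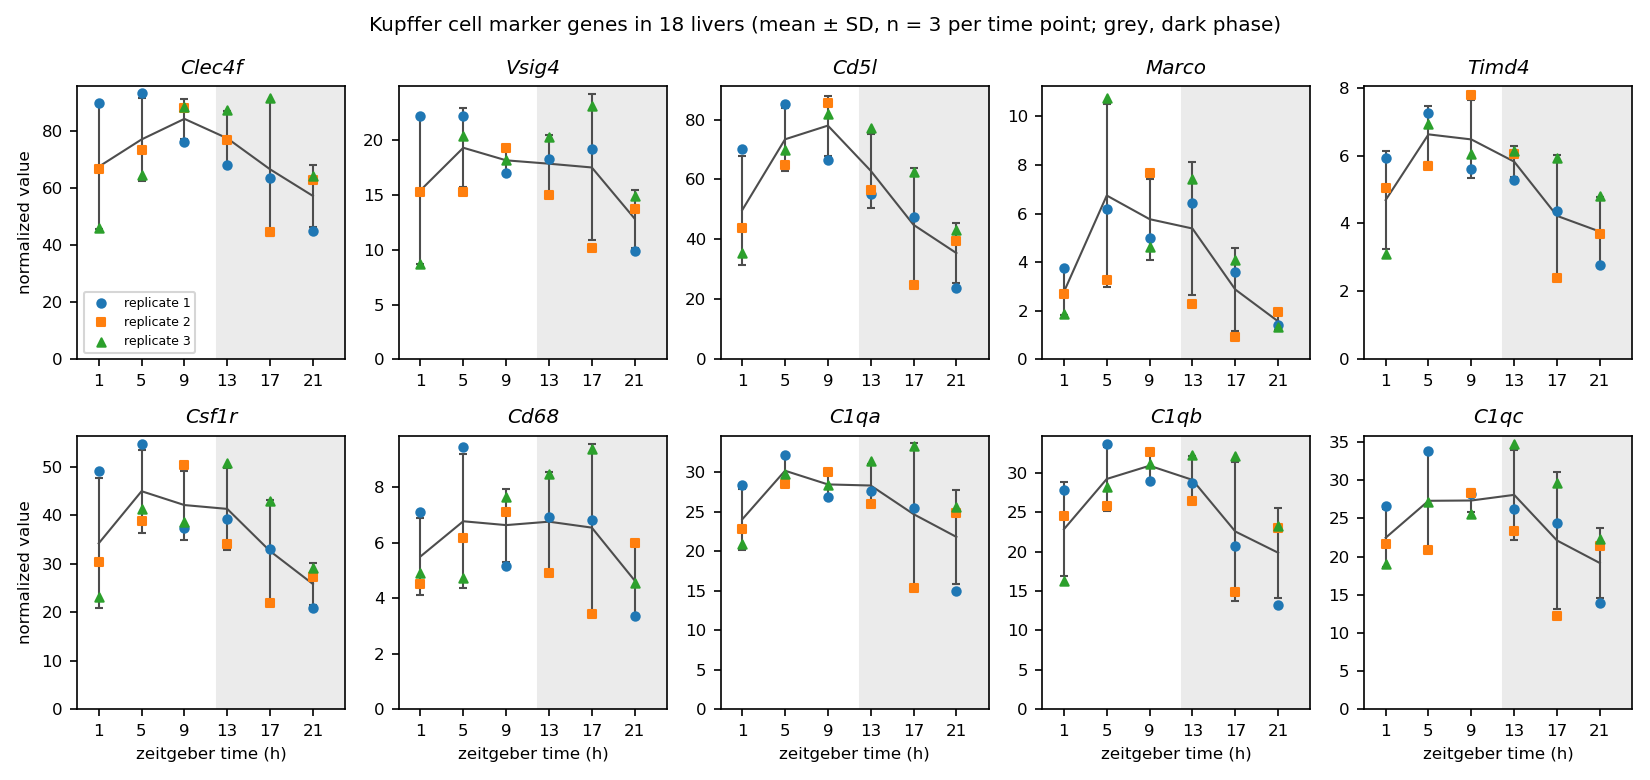
Normalized value of each of the 10 genes (vertical axis, linear from 0) against zeitgeber time in hours, with 1 symbol per liver, lines joining the means and bars of 1 SD (n = 3). Means are lowest at ZT21 in all 10 panels, and the livers of ZT17 lie far apart, with replicate 2 lowest and replicate 3 highest in each panel.

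Cd5l had the clearest time course. Its values were 70.1, 43.7 and 35.4 at ZT1, 85.3, 65.0 and 70.0 at ZT5 and 66.6, 85.5 and 81.8 at ZT9. In the dark phase they were 55.3, 56.4 and 77.1 at ZT13, 47.6, 24.6 and 62.4 at ZT17 and 23.9, 39.4 and 43.0 at ZT21. All livers of ZT5 and ZT9 lay above all livers of ZT21, while ZT1 and ZT17 each spanned from low to high. The mean was 78.0 ± 10.02 at ZT9 and 35.4 ± 10.1 at ZT21, a ratio of 2.20. Among the 10 genes it was the only one called by the limma F test across the 6 time points (adjusted P = 0.042), a test that called 26.3% of all genes. It was also the only one called by MC, which combines the JTK and Lomb–Scargle tests (q = 0.030, 18.3% of all genes called). Without the 2 low livers neither test called it (limma adjusted P = 0.059, MC q = 0.14).

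Marco, a receptor that binds bacteria and particles, had the widest swing. Its values were 3.77, 2.68 and 1.86 at ZT1, 6.20, 3.27 and 10.8 at ZT5 and 4.98, 7.69 and 4.64 at ZT9. They were 6.43, 2.29 and 7.43 at ZT13, 3.60, 0.909 and 4.11 at ZT17 and 1.41, 1.95 and 1.32 at ZT21. Every liver of ZT21 was below every liver of ZT5 and ZT9, and the highest value came from ZT5 replicate 3, with 258 estimated reads, against 15 to 23 reads per liver at ZT21. The means were 6.74 ± 3.78 at ZT5 and 1.56 ± 0.338 at ZT21, a ratio of 4.32. Across the 6 time points the limma test gave an adjusted P of 0.054.

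Timd4 ran from 5.69 to 7.25 at ZT5 and from 5.61 to 7.78 at ZT9. It ran from 2.38 to 5.94 at ZT17 and from 2.78 to 4.81 at ZT21. The ZT5 and ZT9 livers did not overlap those of ZT21 but did overlap those of ZT17. Means were 6.63 ± 0.825 at ZT5 and 3.76 ± 1.02 at ZT21. Csf1r, the receptor for CSF1 and IL-34, had 54.6, 38.8 and 41.3 at ZT5 and 20.9, 27.3 and 29.1 at ZT21, again without overlap. C1qb had 29.0, 32.7 and 31.1 at ZT9 and 13.3, 23.0 and 23.3 at ZT21, and its ZT17 livers covered nearly the whole range with 20.7, 14.8 and 32.1.

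The 5 other genes had flatter means. Clec4f ranged from 44.7 in ZT17 replicate 2 to 93.3 in ZT5 replicate 1 with a median of 70.6, the narrowest range of the 10 at 2.09 times. Vsig4 ranged from 8.75 in ZT1 replicate 3 to 23.2 in ZT17 replicate 3. C1qa ranged from 15.0 to 33.3, C1qc from 12.2 to 34.7 and Cd68 from 3.35 to 9.44. For Vsig4 and C1qa the highest liver of all was ZT17 replicate 3, a dark phase liver, so their extremes did not follow the order of the means.

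A cosine and sine of 24 h, fitted by limma to log2(value + 1), called 5 of the 10 genes, where 35.3% of all genes tested were called. These were Cd5l, with an amplitude of 0.59 ± 0.12 on the log2 scale (SE, n = 18) and a fitted peak at ZT8.22 (adjusted P = 0.0025), Marco, with 0.75 ± 0.16 and ZT8.52 (adjusted P = 0.0052), Timd4, with 0.38 ± 0.09 and ZT8.10 (adjusted P = 0.010), C1qb, with 0.35 ± 0.10 and ZT8.83 (adjusted P = 0.023), and Csf1r, with 0.37 ± 0.10 and ZT8.48 (adjusted P = 0.028). The 5 others had amplitudes of 0.21 ± 0.11 (Cd68) to 0.28 ± 0.10 (C1qc), fitted peaks between ZT8.49 and ZT9.87 and adjusted P values from 0.081 for Clec4f to 0.31 for Cd68. The genes vary together between livers, and their fitted peaks are not 10 independent readings. Without the 2 low livers, 3 of 10 genes and 29.8% of all genes were called, namely Cd5l (0.44 ± 0.09, adjusted P = 0.0073), Marco (0.64 ± 0.17, adjusted P = 0.022) and Timd4 (0.27 ± 0.08, adjusted P = 0.038). C1qb then had an adjusted P of 0.070 and Csf1r of 0.12. Fitted peaks from the 16 livers were later in all 10 genes, between ZT8.76 for Cd5l and ZT12.6 for Cd68, in the dark phase. Leaving out ZT21 replicate 1 alone ended the calls of C1qb (adjusted P = 0.067) and Csf1r (adjusted P = 0.075). The call of Csf1r also ended without ZT9 replicate 2 alone (adjusted P = 0.060).

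JTK, a rank test against cosine orders of 20, 24 and 28 h, called none of the 10 at q below 0.05 and 14.1% of all genes. In the 16 livers it also called 0 of 10, and 8.83% of all genes. At an unadjusted P below 0.05 it took in 3 of the 10 from all livers and 27.9% of all genes, and MC 3 of the 10 and 28.1%. The lowest JTK q was 0.054, for Cd5l, followed by 0.13 for C1qb and 0.16 for Marco. The MC call of Cd5l held in 11 of 18 fits that each left out 1 liver, and its call across time points in 5 of 18. By contrast, its 24 h call, and those of Marco and Timd4, held in 18 of 18.

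The dark phase was lower than the light phase in 10 of 10 genes, a sign that 51.3% of all genes shared, and the difference passed the limma test for Cd5l only. Cd5l fell by 0.52 on the log2 scale (95% interval -0.90 to -0.14, adjusted P = 0.043), from a mean of 67.1 ± 17.5 in the light to 47.7 ± 17.3 in the dark (SD, n = 9 each). Of all genes tested, 12.3% were called lower in the dark and 11.9% higher. Marco had a difference of -0.57 (-1.08 to -0.06, adjusted P = 0.098) and Timd4 of -0.32 (-0.62 to -0.03, adjusted P = 0.099). The other 7 had differences between -0.29 (Csf1r) and -0.10 (Cd68), with intervals that included 0. The call of Cd5l held in 6 of 18 fits that each left out 1 liver. Without the 2 low livers limma called 0 of the 10 genes, where 18.3% of all genes were called. Cd5l then had -0.31 (adjusted P = 0.13), and the sign turned for Vsig4 (0.03), Cd68 (0.08) and C1qa (0.0067).

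**Figure D2:**
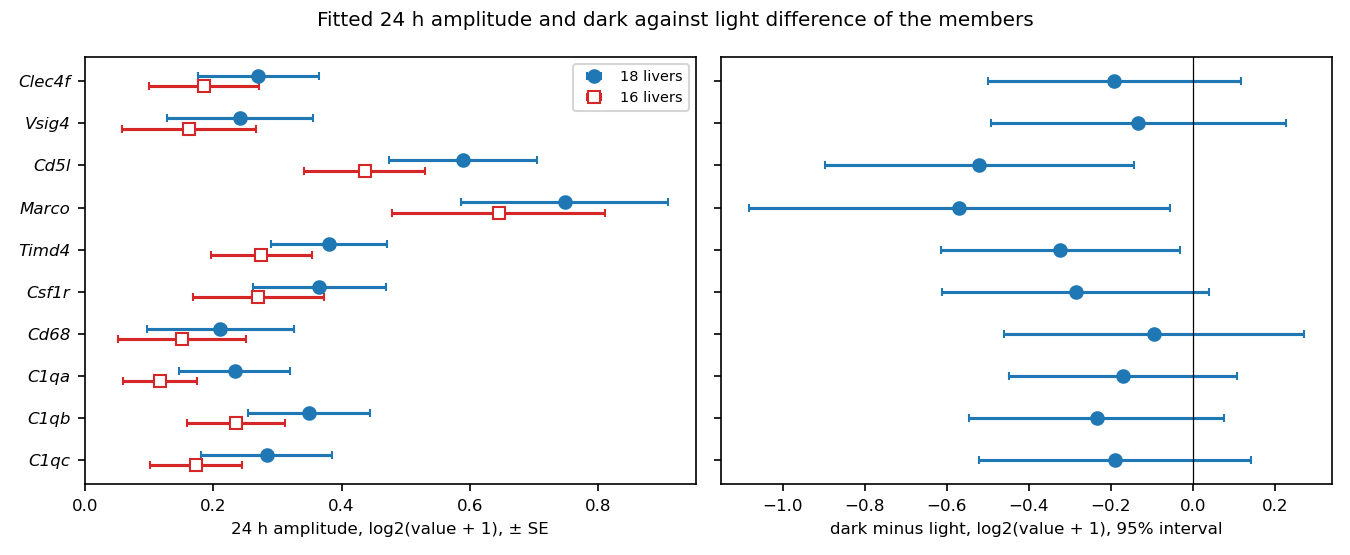
Left, amplitude of the fitted 24 h curve in log2(value + 1) with bars of 1 SE, from all 18 livers (filled circles) and from the 16 without ZT17 replicate 2 and ZT21 replicate 1 (open squares); right, dark minus light difference with its 95% interval. Amplitudes are largest for Marco and Cd5l and lower in all 10 genes without the 2 livers; only the intervals of Cd5l, Marco and Timd4 stay below 0.

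Spread between livers of one time point was larger than for most genes. The median SD within time points was 0.36 on the log2 scale for the 10 genes and 0.19 for all genes tested, and 0.16 for the 7953 genes with a mean value inside the range of the 10. Variation coefficients (CV, the SD divided by the mean) had a median of 0.163 between time points and 0.234 between replicates for the 10 genes. For all genes tested the medians were 0.149 and 0.138. The CV between time points exceeded that between replicates in 2 of 10 genes, Cd5l (0.292 against 0.257) and Marco (0.491 against 0.419), while it did so in 47.7% of all genes. From the 16 livers the median SD within time points was 0.29 for the 10 genes and 0.19 for all, and the median CV of the 10 genes was 0.150 between time points and 0.176 between replicates. Differences between time point means made up 60.3% of the variance of log2 values in Cd5l and 57.5% in Marco, and 26.2% in Vsig4 and 20.5% in Cd68. The median was 39.0% for the 10 genes and 48.9% for all genes tested.

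The livers of ZT17 show how far this spread went. Replicate 3 exceeded replicate 2 in all 10 genes, by 1.96 times for Csf1r up to 4.52 times for Marco with a median of 2.36 times. At ZT1, replicate 1 was highest for 10 of 10 genes and replicate 3 lowest for 9 of 10. At ZT13, replicate 3 was highest for 10 of 10, and at ZT5 replicate 1 was highest for 9 of 10. The map of deviations by liver shows these as columns of one colour.

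**Figure D3:**
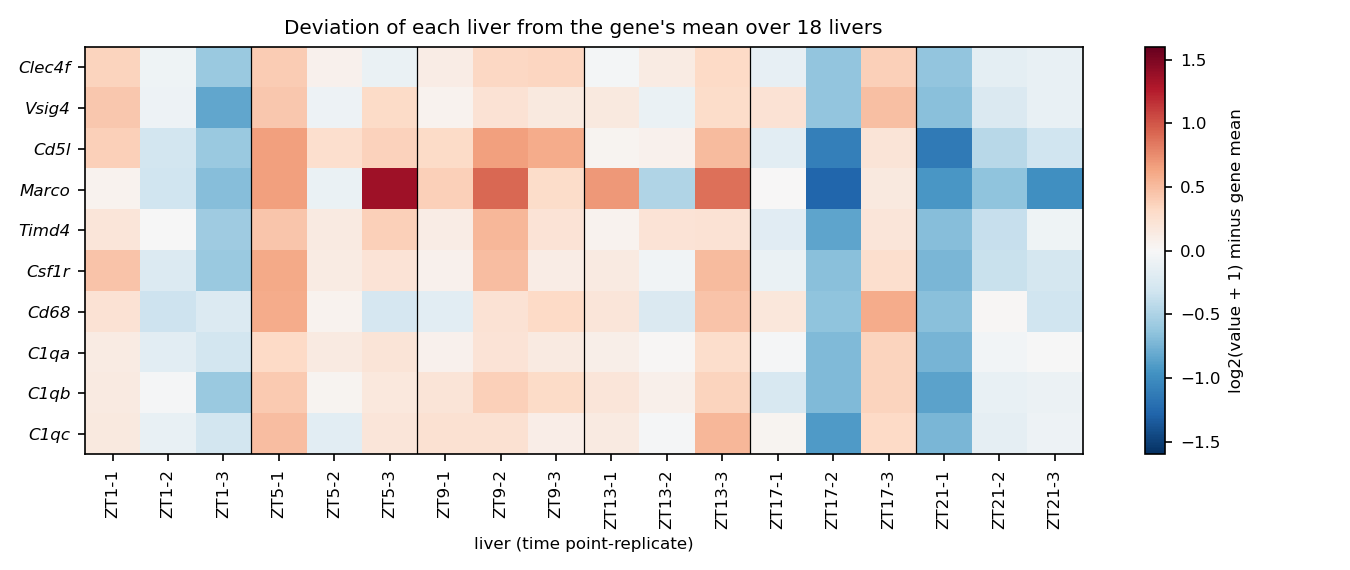
Deviation of log2(value + 1) from the gene's mean over 18 livers (colour, red above and blue below) for the 10 genes (rows) in each liver (columns, grouped by time point). ZT17 replicate 2 and ZT21 replicate 1 are blue in all rows, on average -0.81 and -0.78, and ZT5 replicate 1 is red in all rows, on average 0.50.

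Pairs of the 10 genes were correlated over the 18 livers, and 45 pairs were computed. Pearson's r ran from 0.627 (Marco and Cd68) to 0.953 (Cd5l and Timd4) with a median of 0.877, and Spearman's rho had a median of 0.845. By permutation, 45 of 45 pairs had an adjusted P below 0.05 with either measure, the highest being 0.0059 for r and 0.0054 for rho. Without the 2 livers farthest from the median of the first gene, the median r was 0.812 and the lowest 0.398, for Timd4 and Cd68. The genes share each liver's library and its depth, so the correlation is one of levels within the same RNA.

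Most pairs kept a close relation within time points, and those with Marco less so. With the mean of each time point removed, r ran from 0.450 (Clec4f and Marco) to 0.955 (Cd5l and C1qa), with a median of 0.868. By permutation within time points, 43 of 45 pairs had an adjusted P below 0.05 for r and 42 of 45 for rho. The median r of Marco with the 9 others was 0.783 from the values and 0.614 from the deviations. The pairs that missed it for r were Clec4f with Marco (adjusted P = 0.14 by permutation) and Marco with Cd68 (adjusted P = 0.10 by permutation). Clec4f and C1qb, genes on different chromosomes, had the steadiest ratio, with an SD of the log2 ratio of 0.13 over 18 livers.

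**Figure D4:**
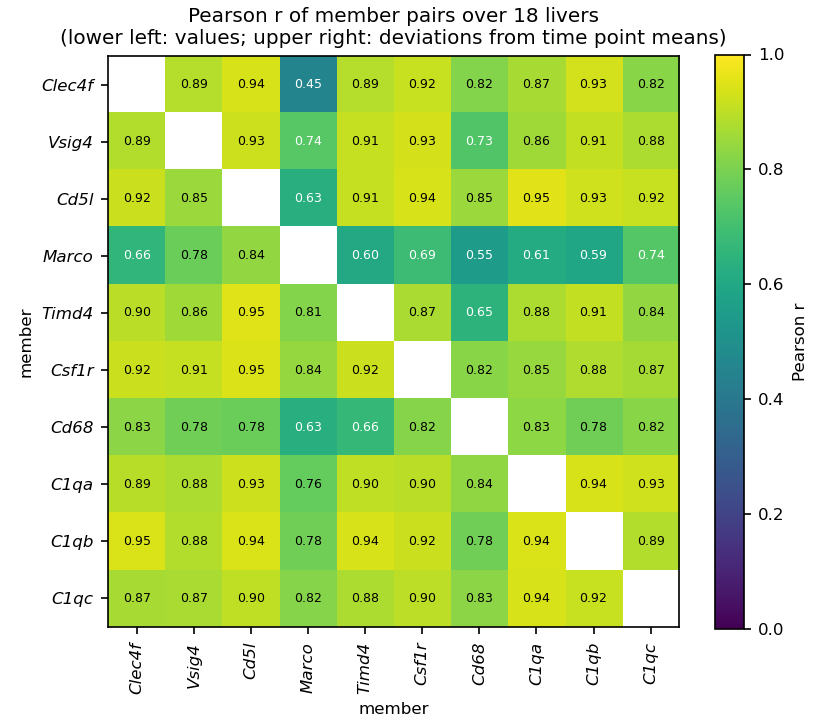
Pearson's r of log2(value + 1) for the 45 pairs over 18 livers, from the values (lower left) and from deviations from time point means (upper right). In the upper right, Marco has coefficients from 0.45 with Clec4f to 0.74, Timd4 and Cd68 have 0.65, and most other pairs lie above 0.8.

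Marco departed most from the common course. Relative to the mean of the 9 others, its log2 value had an SD of 0.69 between livers, from 1.61 above its median in ZT5 replicate 3 to 1.08 below in ZT21 replicate 3. The SD of the others ran from 0.12 (Csf1r) to 0.28 (Cd68). ZT5 replicate 3 was also the liver in which Clec4f (-0.50) and Cd68 (-0.75) were lowest relative to the rest. Marco is the thinnest gene in reads, and the part of counting error in its spread was not tested.

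The 3 C1q genes are neighbours. On GRCm38, in the GENCODE M21 annotation, they lie on the minus strand of chromosome 4 between 136880129 and 136898803, in the order C1qb (ENSMUSG00000036905), C1qc (ENSMUSG00000036896) and C1qa (ENSMUSG00000036887), with gaps of 3616 and 2851 bases. Their products join in one protein. Their pairwise r was 0.945 (C1qa and C1qb), 0.941 (C1qa and C1qc) and 0.918 (C1qb and C1qc), and within time points 0.939, 0.927 and 0.885. Pairs from different chromosomes reached like values, such as 0.945 for Clec4f and C1qb. The SD of the log2 ratio was 0.133 for C1qa and C1qc, 0.136 for C1qa and C1qb and 0.154 for C1qb and C1qc. Its median over the 45 pairs was 0.210. Whether neighbours differ from other pairs was not tested. Cd5l (ENSMUSG00000015854) lies on the plus strand of chromosome 3 at 87357881 to 87371073 and Marco (ENSMUSG00000026390) on the minus strand of chromosome 1 at 120474538 to 120505024. Clec4f (ENSMUSG00000014542) lies on chromosome 6 at 83644542 to 83656187, and Vsig4 (ENSMUSG00000044206) on chromosome X at 96247203 to 96293438. Timd4 (ENSMUSG00000055546) and Cd68 (ENSMUSG00000018774) are both on chromosome 11, at 46810800 to 46844332 and 69664213 to 69666153.

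Sequence next to the start site was read for 8 of the 10 genes that matched RefSeq windows of GRCm38.p6, from 250 bases before the start to 50 after. The upstream 250 bases of the genes with the largest amplitudes, Cd5l and Marco, and of the neighbours C1qb and C1qc are shown 5′ to 3′ in the direction of transcription, with capitals marking the core GAGGAA, or its reverse complement TTCCTC, that the macrophage factor PU.1 is known to bind.
Cd5l, chr3:87357631-87357880, plus strand: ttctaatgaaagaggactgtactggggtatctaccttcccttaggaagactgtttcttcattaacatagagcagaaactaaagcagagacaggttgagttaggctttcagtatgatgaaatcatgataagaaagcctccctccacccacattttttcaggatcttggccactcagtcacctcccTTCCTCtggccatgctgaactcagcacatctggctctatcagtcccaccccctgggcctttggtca
Marco, chr1:120505025-120505274, minus strand: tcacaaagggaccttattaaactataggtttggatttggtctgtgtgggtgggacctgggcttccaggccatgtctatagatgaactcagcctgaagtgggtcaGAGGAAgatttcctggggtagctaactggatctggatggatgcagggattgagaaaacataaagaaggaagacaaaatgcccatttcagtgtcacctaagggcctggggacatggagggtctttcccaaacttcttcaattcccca
C1qb, chr4:136886201-136886450, minus strand: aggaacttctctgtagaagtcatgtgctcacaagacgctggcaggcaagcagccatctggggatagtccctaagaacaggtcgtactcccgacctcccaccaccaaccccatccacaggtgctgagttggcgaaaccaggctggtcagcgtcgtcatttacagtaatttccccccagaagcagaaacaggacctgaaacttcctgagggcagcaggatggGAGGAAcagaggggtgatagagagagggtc
C1qc, chr4:136892915-136893164, minus strand: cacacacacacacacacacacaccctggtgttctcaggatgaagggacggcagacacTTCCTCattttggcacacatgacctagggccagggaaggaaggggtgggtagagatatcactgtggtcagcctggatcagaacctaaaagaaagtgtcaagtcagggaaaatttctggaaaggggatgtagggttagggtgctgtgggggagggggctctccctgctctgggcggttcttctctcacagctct
The core stood in 6 of 8 windows, on either strand, and in 28.3% of all 32851 windows of this length. It began at -66 in Cd5l, -146 in Marco, -30 in C1qb and -193 in C1qc, counted from the start site, and Cd68 and Vsig4 held 2 each. The E-box CACGTG, bound by CLOCK and BMAL1, was in 0 of 8 windows and in 7.15% of all. The D-box, searched as TTATGTAA or TTATGCAA, was in 0 of 8 and in 1.66% of all. Both strands were searched, and none of the matches overlapped another motif. A match or its lack describes these letters in this window and nothing about the factor.

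Other genes known from Kupffer cells were read from a list of 18, all of them in the table. The limma F test across time points called 5 of 18 (26.3% of all genes), and the 24 h fit 11 of 18 (35.3% of all genes), or 6 of 18 without the 2 low livers (29.8%). The median amplitude was 0.34 for the list and 0.16 for all genes. Slc40a1, the iron exporter ferroportin, was the most abundant, with means from 185.7 ± 19.7 at ZT5 down to 113.8 ± 14.6 at ZT17 (adjusted P across time points = 0.0080). Mertk, a receptor for dying cells, rose from 14.2 ± 2.29 at ZT1 to 25.1 ± 1.24 at ZT9 (adjusted P = 0.0064). Nr1h3, which encodes the nuclear receptor LXRα and is also made by hepatocytes, went the other way, with 72.3 ± 2.18 at ZT9 and 94.9 ± 3.59 at ZT17 (adjusted P = 0.0065). The adhesion molecule gene Vcam1 was also called (adjusted P = 0.032). In the 2 low livers the summed level of this list was 0.801 and 0.817 of the median liver, against 0.533 and 0.529 for the 10 genes. This sum is carried by abundant genes such as Slc40a1 and Hpgd, and gene by gene the median ratio to the median liver was 0.741 and 0.721, against 0.555 and 0.550 for the 10. Adgre1, the F4/80 gene, was at 4.89 and 5.93 against a median of 11.4 and the syndecan gene Sdc3 at 17.99 and 19.73 against 36.29, while Nr1h3 was at 91.8 and 83.0 against 78.4. Adgre1 and Sdc3 were named after their values were seen.

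General macrophage and myeloid genes gave fewer calls. Of 18 genes, 1 passed across time points (26.3% of all genes), Mpeg1, a pore-forming protein of macrophages (58.99 ± 10.99 at ZT5 and 33.2 ± 9.997 at ZT17, adjusted P = 0.047). Its call held in 7 of 26 alternatives. It was lost without the 2 low livers (adjusted P = 0.16), which left 0 of 18 by limma (22% of all genes). The 24 h fit called 6 of 18 (35.3% of all genes), and 3 of 18 without the 2 low livers (29.8% of all genes), so that the share of the list was near or below that of all genes. Mrc1, the mannose receptor, had a 24 h amplitude of 0.44 ± 0.10 (adjusted P = 0.0085) and an adjusted P across time points of 0.069. Ctsc, a lysosomal protease and the most abundant of them, had 0.15 ± 0.06 (adjusted P = 0.16). In the 2 low livers the summed level of the list was 0.640 and 0.639 of the median liver.

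Ligands and regulators around Csf1r were read from a list of 6. Csf1, its ligand, rose from 7.23 ± 0.408 at ZT1 to 16.6 ± 4.31 at ZT13 (adjusted P across time points = 0.0067), with a fitted peak at ZT12.8, while the fitted peak of Csf1r was at ZT8.48. The difference between these peaks was not tested. Il34, the other ligand, had 2.55 ± 0.309 at ZT13 and 1.27 ± 0.760 at ZT21 (adjusted P = 0.22). Besides Csf1, the 24 h fit called Irf8, a transcription factor of myeloid cells (amplitude 0.34 ± 0.09, adjusted P = 0.017), and Spi1, which encodes PU.1, had an adjusted P of 0.053 in that fit. The 24 h fit thus called 2 of 6, and 1 of 6 in the 16 livers, against 35.3% and 29.8% of all genes.

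Partners of C1q in the early complement cascade are made largely by hepatocytes, and 9 of the 10 listed were in the table. Of these, 2 passed across time points (26.3% of all genes), C2 (158.7 ± 7.33 at ZT9 and 102.5 ± 7.65 at ZT5, adjusted P = 0.011) and the chaperone gene Calr, whose product also binds C1q (adjusted P = 0.022). From the 16 livers 1 of 9 passed (22% of all genes), and Calr had an adjusted P of 0.073. The protease gene C1ra had an adjusted P of 0.18 and C3 of 0.997, at a mean of 5551. Their summed level in the 2 low livers was 1.00 and 0.983 of the median liver.

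Cd5l is a known target of LXR, and 8 genes of LXR and lipid efflux were in the table. The F test called 3 of 8 (26.3% of all genes), Nr1h3, Rxra (381.4 ± 21.7 at ZT9 and 284.5 ± 20.5 at ZT21, adjusted P = 0.0034) and Mylip (11.2 ± 1.06 at ZT5 and 5.70 ± 0.338 at ZT1, adjusted P = 0.017). Apoe, the most abundant, had an adjusted P of 0.45. The 24 h fit called 5 of 8 (35.3% of all genes), or 2 without the 2 low livers (29.8%). Among 13 phagocytic and scavenger receptors, some of which are also on the lists above, 2 were called across time points, Mertk and Lrp1, a receptor that hepatocytes also carry (686.1 ± 38.9 at ZT5 and 460.0 ± 42.2 at ZT17, adjusted P = 0.0025), and 7 by the 24 h fit, or 4 without the 2 low livers, with the same shares of all genes.

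Markers of other cells were measured in the same livers, beginning with the sinusoidal endothelium. All 13 of its markers were in the table, none near 0, and the most abundant was Eng with a mean of 46.9. Their summed level was 370.3, 286.0 and 246.3 at ZT1, 455.3, 359.4 and 395.4 at ZT5, 317.4, 406.8 and 355.9 at ZT9. It was 398.9, 267.9 and 383.0 at ZT13, 296.1, 180.6 and 341.9 at ZT17 and 189.8, 296.6 and 296.7 at ZT21. The lowest liver was ZT17 replicate 2, at 0.548 of the median, and the next was ZT21 replicate 1, at 0.576, and the highest was ZT5 replicate 1, as for the Kupffer cell genes. The 24 h fit called 7 of the 13 (35.3% of all genes), and 1 of 13 without the 2 low livers (29.8%). The F test called 1 of 13 (26.3%), Bmp2 (16.1 ± 1.91 at ZT5 and 7.61 ± 2.52 at ZT17, adjusted P = 0.047). The call of Bmp2 held in 8 of 26 alternatives. It was lost without the 2 low livers (adjusted P = 0.15), which left 0 of 13 by limma (22% of all genes). Endothelial markers thus moved with the Kupffer cell genes, and their part in the result was not tested.

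Other myeloid cells moved in part with them. Dendritic and antigen-presenting cell markers, 7 of 10 in the table and led by Cd74 with a mean of 50.02, had summed levels of 0.490 and 0.466 of the median in ZT17 replicate 2 and ZT21 replicate 1. These sums are carried by Cd74, H2-Aa, H2-Ab1 and H2-Eb1. By contrast, Clec9a was at 2.18 and 2.04 in those livers against a median of 2.04. Siglech was at 0.735 and 0.452 against 0.522, and Itgax at 0.649 and 0.363 against 0.615. The F test and the 24 h fit of limma each called 0 of these 7 (26.3% and 35.3% of all genes). At an unadjusted P below 0.05 each took in 1 of 7 (39.9% and 46.7% of all genes), and JTK and MC 0 of 7 (27.9% and 28.1%). Monocyte and neutrophil markers, 11 of 15 in the table and 5 of them with a mean below 1, stood at 0.758 and 0.978. Of these, 3 passed across time points (26.3% of all genes), among them Ly6g (adjusted P = 0.011) and Cx3cr1 (adjusted P = 0.048, held in 5 of 25 alternatives), at low levels. Lymphocyte markers, 9 of 14 in the table, had sums at 0.813 and 0.808 of the median liver. These sums are carried by Ighm, the heavy chain of IgM (mean 7.81), and 6 of the 9 genes had a mean below 1. Gene by gene, the median ratio to the median liver was 0.720 and 0.521. Across time points limma called 1 of 9 (26.3% of all genes), Ighm (adjusted P = 0.016).

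Hepatocyte and red blood cell markers did not share the low values, and stellate cell markers did so to a smaller extent. The 11 hepatocyte markers, led by Alb, had summed levels of 1.01 and 1.06 of the median in the 2 low livers and varied by 1.26 times between the extremes of 18 livers, whereas the Kupffer cell genes varied by 2.53 times. Stellate cell markers stood at 0.892 and 0.871, the third and second lowest of 18, cholangiocyte markers at 1.13 and 0.986 and red blood cell markers at 0.987 and 1.30. The column totals of the normalized values were the highest of 18 in the same 2 livers (1077230 and 1070197, in a range from 941088). Scaling to equal totals lowers the values of these 2 livers further.

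**Figure D5:**
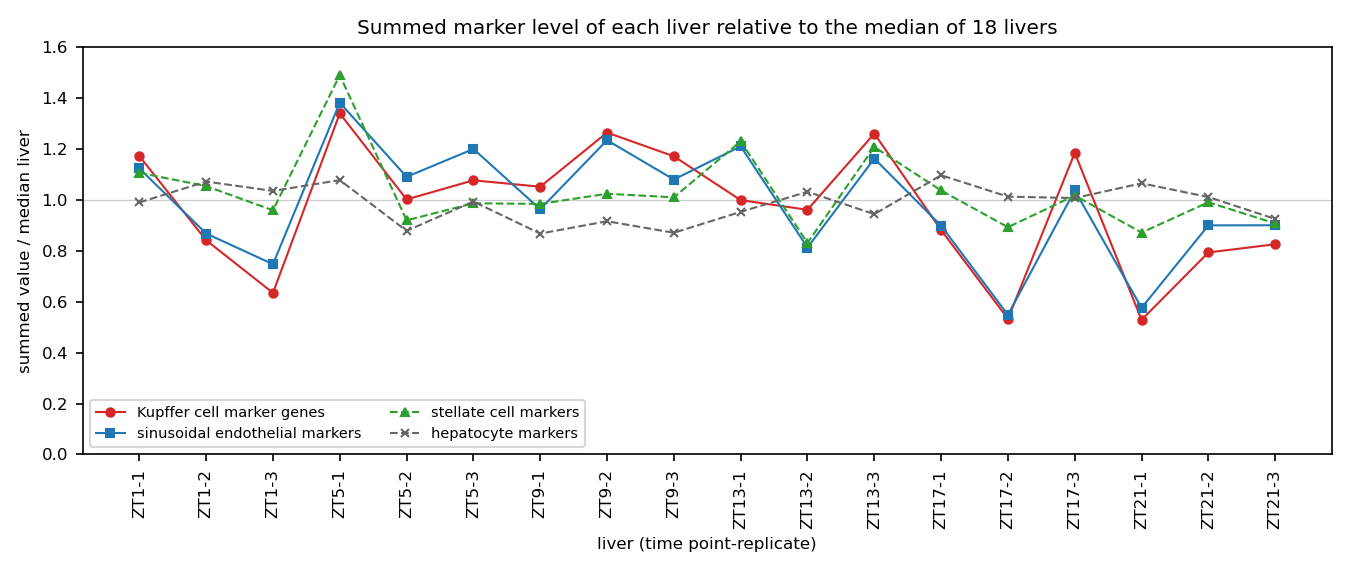
Summed normalized value of 4 marker sets in each of 18 livers, divided by the median liver (vertical axis, linear from 0). The sets are the 10 Kupffer cell genes, 13 sinusoidal endothelial, 13 stellate and 11 hepatocyte markers; the first 2 dip to between 0.529 and 0.576 in ZT17 replicate 2 and ZT21 replicate 1, where hepatocyte markers are at 1.01 and 1.06.

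Among 12470 other genes with a mean value of at least 1, those most like the 10 were ranked by their mean r with them over 18 livers, which had a median of -0.008 over all. The closest were the water channel gene Aqp1 (0.895), Sdc3 (0.881), Adgre1 (0.880), which encodes the macrophage marker F4/80, Laptm5 (0.879), Axl (0.872), Ptgs1 (0.869), Mrc1 (0.869), Cfp (0.868), Ptprb (0.864) and Dnase1l3 (0.864). Of these, 3 are on the list of other Kupffer cell genes alone (Sdc3, Adgre1 and Cfp), Axl is also on that of phagocytic receptors, Laptm5 and Mrc1 are on that of general macrophage genes, and Dnase1l3 is an endothelial marker. Aqp1, which endothelial cells are known to make, was at 36.5 and 36.3 in the low livers against a median of 80.9. By list, the median of this mean r was highest for the sinusoidal endothelial markers, at 0.827. It was 0.709 for general macrophage and myeloid genes and 0.657 for other Kupffer cell genes. From deviations from time point means the medians were 0.799, 0.686 and 0.554. By deviations from time point means the 10 closest genes ranked from 1 (Mrc1) to 39 (Cfp), and 3 of them (Mrc1, Adgre1 and Aqp1) were again among the 10 closest. The endothelial markers Cdh5 and Kdr ranked 2 and 6 there.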

How the data were processed

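RNA from 18 whole mouse livers, 3 at each of 6 zeitgeber times, was sequenced on an Illumina HiSeq2500 after poly(A) selection. The authors trimmed adapters with Cutadapt, mapped reads on the GRCm38 transcriptome with RSEM 1.2.20, per their processing notes, and normalized the estimated counts with limma. What the authors deposited is a normalized signal, not logged, in 1 column per liver. Each value is an RSEM count with 0.5 added, per 1000000 of a library size that the authors adjusted. The lowest value of a liver stands for 0 reads, which gave the depth and the reads behind each value. They are not whole counts, so no count model was used.

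limma 3.58.1 in R 4.3.3 was fitted to log2(value + 1) of 14449 genes, after 2 genes at the lowest value in all livers were left out. Adjusted P values in the text are from its moderated tests, with Benjamini–Hochberg adjustment over those genes and a threshold of 0.05, unless a permutation is named. Fold changes on this scale understate those of low genes. The tests were an F test across 6 time points, an F test of a 24 h cosine and sine, and the contrast of ZT13, ZT17 and ZT21 against ZT1, ZT5 and ZT9. JTK and MC were written again in Python 3.11.15 with scipy 1.17.1 from the study's description, with periods of 20 to 28 h. The original packages were not run, and these versions may call other genes than the packages do. They called 2039 genes (JTK) and 2640 genes (MC) of 14449, fewer than the study reports for these livers. Why the counts differ was not worked out. Permutation tests of correlations were two-sided with 100000 resamples, so that 1e-05 is the smallest P they can give. Scripts were tested on simulated data.

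The 10 genes, the lists of other genes, the motifs and the tests were chosen with earlier results of these data known. From each list, the most abundant gene and up to 3 with the lowest adjusted P across time points were named, besides the genes a small count refers to. Some genes that this rule takes in are not reported here. Per kilobase values divide by the union of exons in GENCODE M21. No source used here says that the livers were processed in batches.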

Additional observations from a re-analysis of the deposited data

How the results depend on the processing

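Counts of the 10 genes called depended on the settings more for some tests than for others. Shares of all genes called under the same setting stand in parentheses. Across time points, limma called 1 gene (26.3%), and 0 with a pseudocount of 0.5 (25.5%) or 0.1 (24.9%), with a trended and robust prior variance (29.2%), at a threshold of 0.01 (13.3%) or without the 2 low livers (22%), but 2 (Cd5l and Marco) with a minimum mean value of 1 (32.1%) or with equal totals (26.7%). At an unadjusted P below 0.05, 3 of the 10 passed it (39.9%). The 24 h fit called 5 genes (35.3%), also with a minimum mean value of 1 (41.4%), and 2 at a threshold of 0.01 (19.8%) and 3 without the 2 low livers (29.8%). At an unadjusted P below 0.05, 8 of the 10 passed the 24 h fit (46.7%). Dark against light called 1 (24.3%), and 0 with a pseudocount of 0.1 (23.6%), with the trended and robust prior variance (25.7%), at 0.01 (12%) or without the 2 low livers (18.3%). JTK called 0 (14.1%), and 1 (Cd5l) with a minimum mean value of 1 (18.5%) or with a 24 h period alone (17.4%). MC called 1 (18.3%), and 0 with a Bonferroni combination (8.35%), at 0.01 (9.18%) or without the 2 low livers (13.7%). The cosine curve of CircaN, with an R-squared of at least 0.7, called 0 (11.2%), and its other curves were not run.

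Leaving out 1 liver at a time, the count ran from 0 to 3 across time points (22.5% to 24.9% of all genes, count highest without ZT17 replicate 3) and from 3 to 7 for the 24 h fit (31.6% to 35.2%, count lowest without ZT21 replicate 1 and highest without ZT17 replicate 3). It ran from 0 to 2 for dark against light (20% to 23.4%), from 0 to 1 for JTK (8.76% to 13.2%) and from 0 to 2 for MC (14% to 17.6%). The dark minus light difference of Cd68 ran from -0.187 to 0.0193 and turned its sign without ZT17 replicate 2. Without the 2 low livers it was 0.0771, that of Vsig4 0.0309 and that of C1qa 0.0067. These livers were singled out after their values were seen, and leaving them out removes 2 of 9 dark phase livers. Without ZT1 replicate 3 alone, the next lowest liver and one of the light phase, dark against light called 2 genes, Cd5l and Timd4 (22.6%). The cause of these changes was not tested. Of the 10 genes most like the set, 3 were among the 10 closest by deviations from time point means, where the 10 ranked from 1 to 39.

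No paired analysis was possible because the labels give no replicate numbers that tie livers across times. Marco had 10 to 23 estimated reads in several livers, and neighbouring time points were not compared.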

Other observations

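Genes that ran opposite to the 10 Kupffer cell genes were looked up after the values had been seen. Among the 12470 other genes with a mean value of at least 1, the lowest mean r was -0.843, for Cox6c, a subunit of mitochondrial cytochrome c oxidase, which had 176.3 in ZT17 replicate 2 and 189.1 in ZT21 replicate 1 against a median of 147.5. Pabpn1, a nuclear poly(A) binding protein, followed with -0.814, and it differed across time points (adjusted P = 0.019, limma). The long non-coding RNAs Malat1 and Neat1, both retained in the nucleus, were also among the 10 lowest. Malat1 (-0.808) had 608.0 and 608.7 in those livers, its highest values, against a median of 426.4. Neat1 (-0.771) had 331.8 and 375.1 against a median of 138.6, and it also differed across time points (adjusted P = 0.011, limma). The other 6 were Fubp1, Hrsp12, Aasdh, Clk2, RP23-474B17.2 and AI480526, with mean r from -0.799 to -0.780. These genes were chosen for this pattern and no test was made of it.

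Red blood cell markers had the widest range of the marker lists, from 108.3 in ZT13 replicate 1 to 673.9 in ZT5 replicate 1, which was also the liver highest in the Kupffer cell genes. Of their 5 genes in the table, limma called 0 across time points (26.3% of all genes) and 0 with a 24 h rhythm (35.3%). At an unadjusted P below 0.05, 0 of the 5 passed either test (39.9% and 46.7% of all genes). By JTK and MC 0 of the 5 did so (27.9% and 28.1%). The order of red blood cell markers over livers otherwise differed from that of the Kupffer cell genes, since the 2 low livers ranked 9 and 15 of 18, counted from the lowest.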
